A study of Mus musculus with 6 samples.

Results

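The genes described here encode the replicative helicase and the factors that place it on chromatin: the helicase subunits Mcm2, Mcm3, Mcm4, Mcm5, Mcm6 and Mcm7, the loading factor Cdc6, the origin recognition complex subunits Orc1 and Orc6, and Cdc45, which joins the helicase when an origin fires. They were taken by gene symbol, and all 10 were among the 11108 genes of the deposited table. RNA-seq was run on hematopoietic stem cells from the bone marrow of Mcph1-/- mice and WT mice, with 3 libraries of each genotype. Microcephalin, the product of Mcph1, is known for roles in chromosome condensation and in DNA damage signalling. The 200 cells behind a library, sorted with no prior treatment, were turned into cDNA by Smart-seq2, which copies whole transcripts from small inputs. The sort gate was lineage-negative, Sca-1+, c-kit+, CD34- and CD150+. The sources used here give neither strain nor age, nor the deleted part of Mcph1, nor whether each library came from its own mouse, so p-values cover only how these libraries vary, a spread that may be technical.

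In late mitosis and G1, the origin recognition complex and Cdc6, together with Cdt1, load double hexamers of the 6 MCM subunits onto DNA, a step called licensing. In S phase Cdc45 and the GINS complex bind the loaded hexamer and turn it into the active helicase, and geminin blocks further loading. Resting cells carry few licensed origins and need MCM and Cdc6 to be made again before they divide, and most adult hematopoietic stem cells are at rest. Many of these genes are known targets of E2F transcription factors.

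The libraries held 9464810 to 10455908 reads in Mcph1-/- and 8102605 to 8655123 in WT, and found 10516 to 10777 genes in Mcph1-/- against 10209 to 10335 in WT. Values are normalised read counts, that is, reads per gene divided by 1 size factor per library, and 1 read is worth 0.820 to 0.912 in Mcph1-/- and 1.01 to 1.08 in WT. The targeted gene was read in every library, at 427.8, 37.7 and 233.9 in Mcph1-/- and 160.5, 341.0 and 34.4 in WT, and the groups overlapped. Reads anywhere in the gene are no check on a deletion of unknown extent, so every direction below rests on the genotype labels. Of 11 stem cell markers, 10 had reads in every library, and Slamf1, which encodes CD150 and was used in the sort, had 0 reads in at least 1 library.

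The promoters of Mcm6, Mcm3, Mcm5 and Cdc6 are shown because these are the 4 genes whose libraries did not overlap between genotypes. Each is the RefSeq window of 250 bases before and 50 bases after the transcription start in build GRCm38.p6 (the coordinates of mm10), written 5′ to 3′ on the gene's strand. Capitals mark matches, on either strand, to TTTCGCGC, TTTGGCGC, TTTCCCGC or TTTGCCGC, 4 spellings of an E2F-type motif, and overlapping matches form 1 stretch.
Mcm6, chr1:128359656-128359955, minus strand: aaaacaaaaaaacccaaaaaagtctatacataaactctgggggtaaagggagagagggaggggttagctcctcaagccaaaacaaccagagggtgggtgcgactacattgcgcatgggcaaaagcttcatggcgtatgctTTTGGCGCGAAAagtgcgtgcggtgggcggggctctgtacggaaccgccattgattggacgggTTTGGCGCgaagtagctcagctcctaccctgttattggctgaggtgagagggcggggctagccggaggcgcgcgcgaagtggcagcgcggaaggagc
Mcm3, chr1:20820263-20820562, minus strand: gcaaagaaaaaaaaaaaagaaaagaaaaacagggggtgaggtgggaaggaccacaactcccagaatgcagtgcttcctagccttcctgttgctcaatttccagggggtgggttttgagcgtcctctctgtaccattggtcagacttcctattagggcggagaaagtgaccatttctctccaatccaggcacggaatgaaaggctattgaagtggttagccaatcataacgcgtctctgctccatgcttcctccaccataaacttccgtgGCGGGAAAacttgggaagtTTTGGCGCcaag
Mcm5, chr8:75109259-75109558, plus strand: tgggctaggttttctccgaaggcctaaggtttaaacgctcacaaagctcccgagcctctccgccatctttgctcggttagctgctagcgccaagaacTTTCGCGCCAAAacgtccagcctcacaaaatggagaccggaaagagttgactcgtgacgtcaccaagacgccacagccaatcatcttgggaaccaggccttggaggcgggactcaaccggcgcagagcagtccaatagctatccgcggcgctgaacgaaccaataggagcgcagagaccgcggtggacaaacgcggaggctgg
Cdc6, chr11:98907901-98908200, plus strand: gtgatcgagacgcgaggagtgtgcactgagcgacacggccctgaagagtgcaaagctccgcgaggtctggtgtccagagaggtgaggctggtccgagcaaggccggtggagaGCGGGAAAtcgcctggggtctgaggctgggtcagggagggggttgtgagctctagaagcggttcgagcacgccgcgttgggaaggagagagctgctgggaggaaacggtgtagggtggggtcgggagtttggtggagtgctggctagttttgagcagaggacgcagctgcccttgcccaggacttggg

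In the Mcm6 window, 2 stretches matched: TTTGGCGC at 110 bases before the start overlaps TTTCGCGC on the other strand, and a further TTTGGCGC begins 47 bases before the start. The Mcm5 stretch likewise joins TTTCGCGC with TTTGGCGC on the other strand. The 2 matches of Mcm3 lie downstream of the start, from bases 20 and 39. Cdc6 had 1 match, to TTTCCCGC on the other strand. Its window begins at 98907901, downstream of the gene start given below (98907801), so bases before that start were not scanned. Windows were found for 9 of the 10 genes (Mcm4 was not matched to the table), and 6 of these genes held a match, the other two being Mcm7 and Orc1. Mcm2, Orc6 and Cdc45 held none. Mcm7 has 2 windows, and 1 of them held no match. By window, 60% of the 10 windows of members held at least 1 match, beside 2.27% of all 32851 windows of the same length. A match describes letters and does not show that a factor binds there.

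Mcm6, a subunit of the helicase ring, had the smallest p of the 10 genes and the smallest residual SD on the log2 scale. The gene is at chr1:128331590-128359664 (mm10, minus strand). Its normalised read count was 2159, 2116 and 2790 in Mcph1-/- replicates 1 to 3, against 1251, 1100 and 1055 in WT replicates 1 to 3. Every Mcph1-/- library stood above every WT library, and the lowest Mcph1-/- value was far above the highest WT value. The means were 2355 ± 377 in Mcph1-/- and 1136 ± 103 in WT (SD, n = 3 each), a ratio of 2.07. On the log2 scale the fold change, Mcph1-/- over WT, came to 1.04 (SE 0.22; 95% interval 0.54 to 1.54). By limma-trend fitted on all 10846 genes tested, the unadjusted p was 0.00129, the 32nd smallest, and the Benjamini-Hochberg adjusted p was 0.435. Mcm6 therefore did not pass the threshold of 0.05 over all genes, although the difference exceeded the spread between these libraries. DESeq2 on the recovered reads gave an adjusted p of 1.1e-04 and edgeR's quasi-likelihood test one of 0.465. In bulk libraries, more cells that carry a transcript and more transcript per cell cannot be told apart.

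No member passed by limma-trend. Over all 10846 genes tested it called 4, or 0.0369%, with 0.00922% higher and 0.0277% lower in Mcph1-/-. At an unadjusted p under 0.05 there were 2 members, Mcm6 and Cdc6, both higher in Mcph1-/-, while 7.71% of all genes tested met this in either direction and 4.16% as higher. By edgeR's quasi-likelihood test 0 members passed and 1, Mcm6, had an unadjusted p under 0.05, beside 0.0184% and 5.47% of all genes tested. By limma-voom 0 passed and 2, Mcm6 and Cdc6, had an unadjusted p under 0.05, beside 0.00922% and 8.58%. DESeq2 called 1 member, Mcm6, and 2, Mcm6 and Orc6, had an unadjusted p under 0.05, beside 2.19% (1.11% higher) and 10.9% of all genes tested. The unadjusted p of Cdc6 was 0.130 by DESeq2 and 0.0943 by edgeR, and that of Orc6 was 0.0233 by DESeq2.

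Mcm3, Mcm5, Mcm6 and Cdc6 had every Mcph1-/- library above every WT library, as did 7.4% of all genes tested, and no member had every Mcph1-/- library below, as 6.8% of all genes tested did. Fold changes of 9 of the 10 members were above 0, with a median log2 fold change of 0.95, beside 53.8% of all genes tested above 0 and a median of 0.08.

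Summed markers of dividing cells and of several other cell types did not overlap between the genotypes either. All 10 dividing cell markers had a higher mean in Mcph1-/- and reads in every library, with summed normalised read counts of 8518 to 12050 in Mcph1-/- and 4006 to 5358 in WT. Of 8 erythroid markers 3 had a higher mean in Mcph1-/-, and Gata1, Epor and Hbb-bs were at 0 in at least 1 library. For 3 of the 8 every Mcph1-/- library was above every WT library, and for 3 below, beside 7.4% and 6.8% of all genes tested. The erythroid sums were 27764 to 35500.4 in Mcph1-/- and 2551 to 19445 in WT, but without Car1 they overlapped. Most of that sum in Mcph1-/- is Car1, a carbonic anhydrase, named here after its values were seen, at 30038, 23716 and 31845 in Mcph1-/- and 1628, 1977 and 4566 in WT (log2 fold change 3.53, SE 0.35; limma adjusted p = 0.0242). Of 10 neutrophil markers 7 had values and 1 had a higher mean in Mcph1-/-, with sums of 3287 to 18724 in Mcph1-/- and 58564 to 67847 in WT, and Elane at 0 in at least 1 library. Of 5 monocyte and macrophage markers 3 had values and 0 had a higher mean in Mcph1-/-, with sums of 4436 to 4792 in Mcph1-/- and 7872 to 12700.01 in WT, and Ly6c2 and Cd68 at 0 in at least 1 library. Of 11 stem cell markers 3 had a higher mean in Mcph1-/-, with sums of 9746 to 10739 in Mcph1-/- and 11280.2 to 14252 in WT. These markers include Cd34, although the sort gate was CD34-. The sums of megakaryocyte, B cell, and T and NK cell markers overlapped between the genotypes. The part of these cells, and of the larger number of genes detected in Mcph1-/-, in the values of the helicase and licensing genes was not tested.

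**Figure D1:**
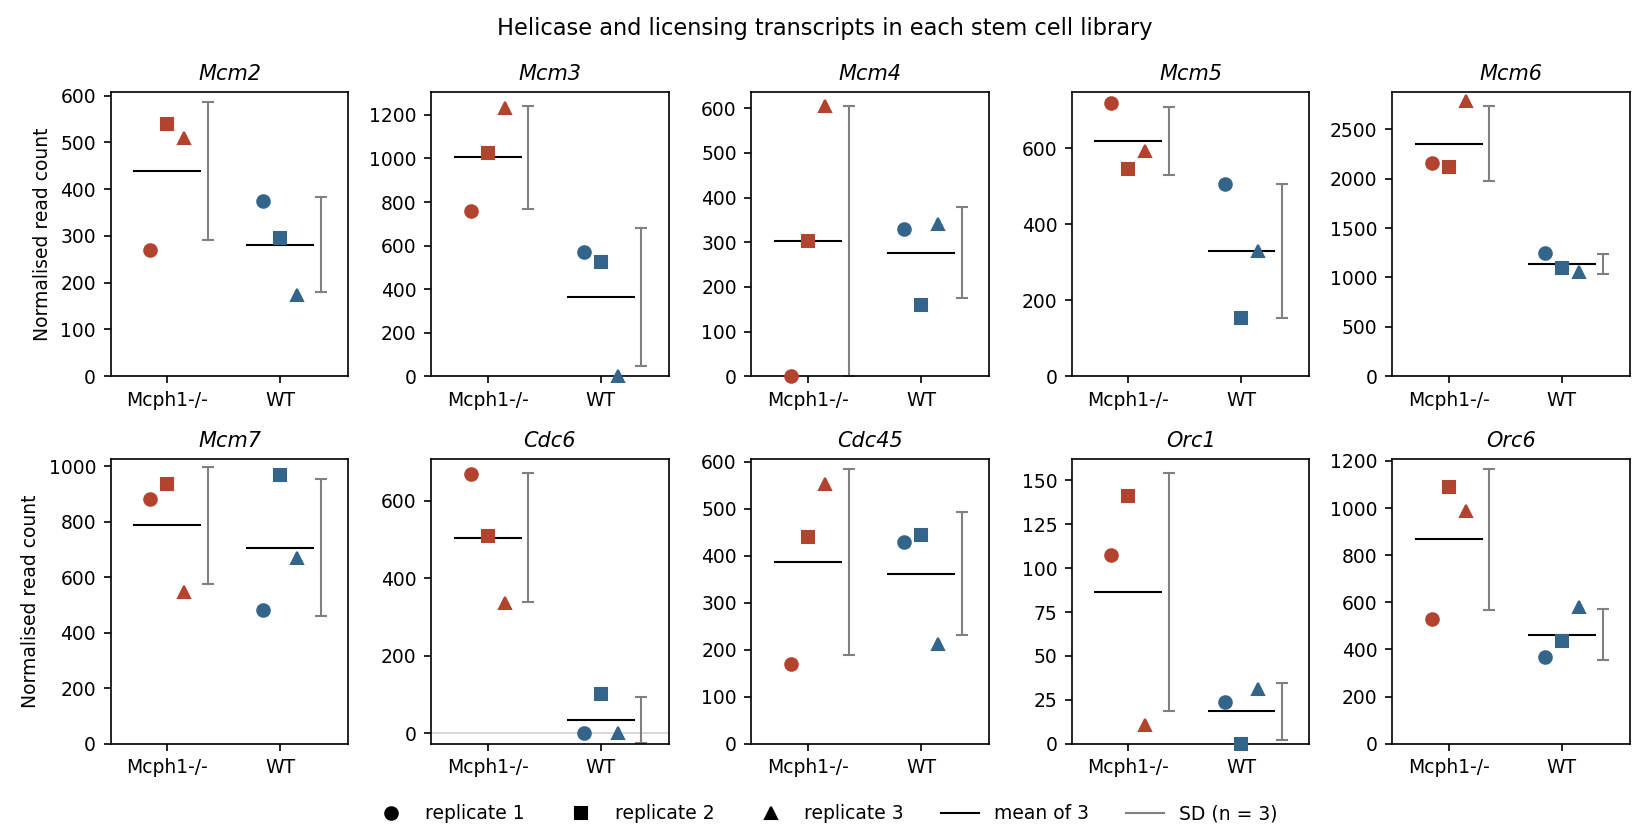
Normalised read count (vertical axis, 1 scale per gene) of the 10 genes in Mcph1-/- libraries (left, red) and WT libraries (right, blue). Symbols mark replicates, black lines means and grey bars SD (n = 3). For Mcm6, Mcm3, Mcm5 and Cdc6 every Mcph1-/- point lies above every WT point, and libraries at or near 0 are seen for Mcm3, Mcm4, Cdc6 and Orc1.

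Mcm3, a neighbour of Mcm5 in the ring, is at chr1:20802968-20820312 (mm10, minus strand). It stood at 759, 1023 and 1234 in Mcph1-/- and at 569, 524 and 0 in WT. The groups did not overlap, and WT replicate 3 had no Mcm3 read at all. The exact 95% Poisson interval there reaches 3.69 reads (counting error only). A floor of 3 reads is a normalised read count of 3.04 in that library. For Mcm3 the log2 fold change was 3.88 (SE 2.19; limma adjusted p = 0.668), while the log2 ratio of the group means was 1.46. Without WT replicate 3 the log2 fold change was 0.85 (limma adjusted p = 0.414), so the size of the difference rests on that library.

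Mcm5, which flanks the gate through which the ring opens, is at chr8:75109569-75128439 (mm10, plus strand). It stood at 720, 545 and 594 in Mcph1-/- and at 506, 152 and 329 in WT. The highest WT value came close to the lowest Mcph1-/- value without reaching it. The log2 fold change was 1.06 (SE 0.52; 95% interval -0.13 to 2.26; limma adjusted p = 0.662), and it was 0.59 without WT replicate 2.

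Mcm2 and Mcm7 gave groups that overlapped. Mcm2, a subunit that also binds histones, is at chr6:88883474-88898780 (mm10, minus strand) and stood at 269, 539 and 509 in Mcph1-/- and at 375, 295 and 174 in WT, and the log2 fold change was 0.64 (SE 0.54; adjusted p by limma 0.750). Only Mcph1-/- replicate 1 fell within the WT range, and without WT replicate 3 the Mcm2 fold change was 0.33. Mcm7, which forms the catalytic core with Mcm4 and Mcm6, is at chr5:138164583-138172422 (mm10, minus strand) and stood at 881, 935 and 546 in Mcph1-/- and at 481, 970 and 668 in WT. WT replicate 2 held the highest Mcm7 value of all 6 libraries. For Mcm7 the log2 fold change was 0.18, with a 95% interval of -0.71 to 1.06 (limma adjusted p = 0.917), which includes differences in either direction. Exons of Mcm7 overlap those of Ap4m1 and Cops6 on the other strand and the microRNA genes Mir25 and Mir93, and with no strand setting given their reads cannot be told apart.

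Mcm4, the third subunit of the catalytic core, was the 1 member with a negative fold change. The gene is at chr16:15623897-15637400 (mm10, minus strand). It stood at 0.912, 304 and 606 in Mcph1-/- and at 330, 160 and 341 in WT. Mcph1-/- replicate 1 held a single Mcm4 read (exact 95% Poisson interval 0.0253 to 5.57 reads, counting error only), although its Mcm6 count rested on 2367 reads. Mcph1-/- replicate 3 held the highest value of the 6 libraries. The log2 fold change was -1.89 (SE 2.01; limma adjusted p = 0.800), while the group means were almost equal, at 304 ± 303 in Mcph1-/- and 277 ± 102 in WT (SD, n = 3 each). Without Mcph1-/- replicate 1 the log2 fold change was 0.71, so its sign rests on that library.

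**Figure D2:**
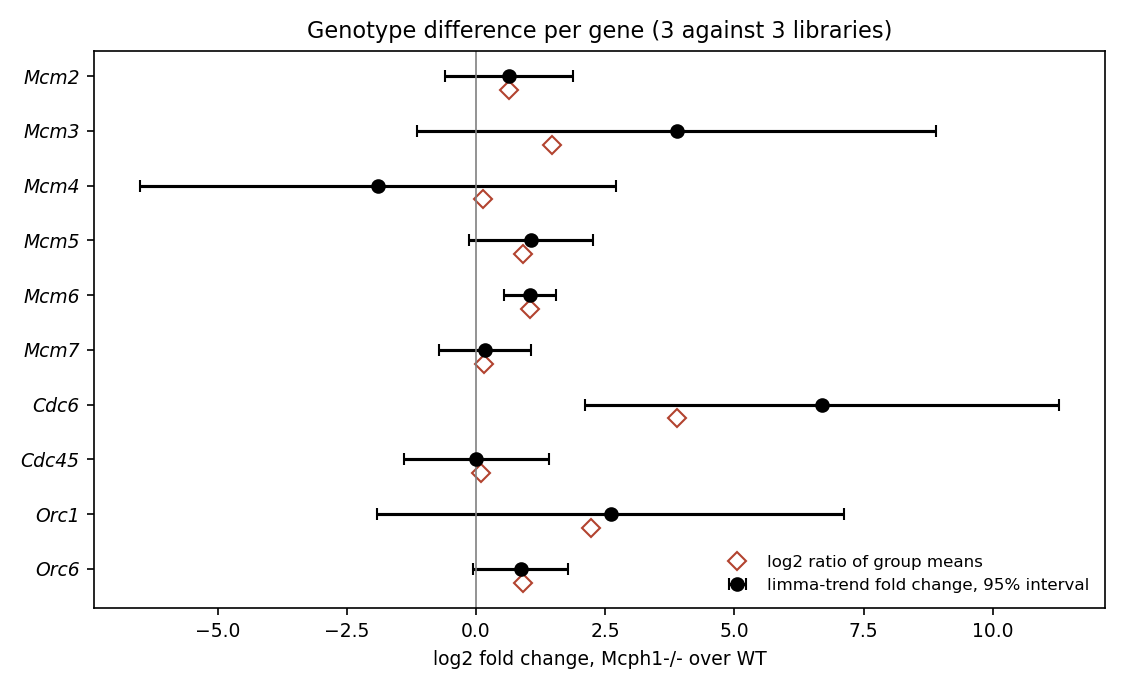
The log2 fold change of each gene, Mcph1-/- over WT (horizontal axis), by limma-trend with its 95% interval (black) and as the log2 ratio of group means (open diamonds). Intervals lie above 0 for Mcm6 and Cdc6, and the 2 measures differ most for Mcm3, Mcm4 and Cdc6, which have libraries at or near 0.

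Cdc6, the ATPase that brings the helicase to the origin recognition complex, had the largest ratio of means and the largest log2 fold change of the 10 genes. The gene is at chr11:98907801-98923940 (mm10, plus strand). It stood at 670, 508 and 336 in Mcph1-/- and at 0, 102 and 0 in WT. Reads numbered 376 to 734 in Mcph1-/- libraries, while WT replicate 2 held 99 reads and WT replicates 1 and 3 held 0. For 0 reads the exact 95% Poisson interval reaches 3.69 reads. A floor of 3 reads is a normalised read count of 3.25 and 3.04 in these 2 libraries. The groups did not overlap. The ratio of the means, 504 ± 167 in Mcph1-/- and 34.0 ± 58.9 in WT (SD, n = 3 each), was 14.8. By limma-trend the log2 fold change was 6.70, with an SE of 1.99 and a 95% interval of 2.12 to 11.28 (limma unadjusted p = 0.00964, adjusted p = 0.599). By DESeq2 and edgeR it was 3.89 and 3.91, with adjusted p of 0.684 and 0.9998. It was 8.93 without WT replicate 2 and 5.58 without WT replicate 1 or 3.

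Orc1, the largest subunit of the origin recognition complex, is at chr4:108579423-108614833 (mm10, plus strand). Its normalised read count stood at 108, 141 and 10.7 in Mcph1-/- and at 23.9, 0 and 31.4 in WT. Mcph1-/- replicates 1 and 2 were above every WT library, and Mcph1-/- replicate 3, with 12 reads, was below WT replicates 1 and 3. For Orc1 the log2 fold change was 2.60 (SE 1.97; limma adjusted p = 0.727). Without WT replicate 2, which had no Orc1 read, it was 0.995. Exons of Orc1 overlap Gm12743, a processed transcript on the other strand.

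Orc6, the smallest subunit of that complex, is at chr8:85299632-85308278 (mm10, plus strand) and stood at 527, 1088 and 986 in Mcph1-/- and at 369, 437 and 580 in WT. Mcph1-/- replicate 1 fell below the highest WT library, and the other two Mcph1-/- libraries stood above all WT libraries. For Orc6 the log2 fold change was 0.86 (SE 0.40; 95% interval -0.06 to 1.79; limma adjusted p = 0.662). Its exons overlap those of Vps35 on the other strand.

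Cdc45, the helicase partner recruited at firing, is at chr16:18780447-18811987 (mm10, minus strand) and stood at 169, 440 and 553 in Mcph1-/- and at 429, 445 and 212 in WT. Each genotype held a low library, and the ranges overlapped almost fully. At 0.01, the log2 fold change was close to 0, with a 95% interval of -1.40 to 1.42 (limma adjusted p = 0.998). This interval includes differences larger than that of Mcm6. Exons of Cdc45 overlap those of Ufd1 on the other strand.

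Spread between libraries was larger than counting error for every member. The coefficient of variation of Mcm6 was 16.03% in Mcph1-/- and 9.07% in WT, where counting error at its depth would give 1.93% and 3.03%. Orc6 varied by 34.4% in Mcph1-/- and 23.4% in WT, against counting errors of 3.16% and 4.74%. The residual SD on the log2 scale was 0.18 for Mcm6, 0.46 for Orc6 and 0.47 for Mcm7, while Cdc6, Mcm4 and Mcm3 had 2.75, 3.24 and 3.72. The median over all genes tested was 0.88. The genes that were low in a library differed from one another: Mcm4 and Cdc45 were lowest in Mcph1-/- replicate 1, which held the highest Mcm5 and Cdc6 values, while WT replicate 3 was lowest for Mcm2 and Mcm6 and had no Mcm3 read.

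To compare levels between genes, normalised read counts were divided by the length of all exons of a gene joined. Per kilobase of exon, Mcm6 averaged 505 ± 80.9 in Mcph1-/- and 243 ± 22.1 in WT, and Orc6 averaged 351 ± 121 in Mcph1-/- and 187 ± 43.7 in WT (SD, n = 3 each). These were the highest levels in both genotypes, but the ranges of Mcm6 and Orc6 overlapped in WT, where WT replicate 3 had Orc6 above Mcm6. By the length of the longest transcript the order turned, with Orc6 at 591 in Mcph1-/- and 315 in WT and Mcm6 at 541 in Mcph1-/- and 261 in WT. Orc1 was lowest by mean, at 24.9 ± 19.5 in Mcph1-/- and 5.29 ± 4.71 in WT. In WT, Cdc6 at 6.50 ± 11.3 overlapped with Orc1. Between these ends in Mcph1-/-, Mcm3 averaged 268 ± 63.4, Mcm7 178 ± 47.6, Mcm5 155 ± 22.6, Cdc45 110 ± 56.3, Cdc6 96.5 ± 31.9, Mcm4 84.6 ± 84.3 and Mcm2 63.1 ± 21.3. Of neighbours in that order, Mcm6 and Orc6 did not overlap, and all other neighbours did. In WT the neighbours Mcm2 (40.4 ± 14.6) and Cdc6 did not overlap. This order holds for joined exons only: by longest transcript in Mcph1-/-, Mcm2 at 126 stood above Cdc6 at 105 and Mcm4 at 84.6, and Cdc45 at 181 was close to Mcm5 at 183.

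The MCM ring holds 1 copy of each subunit protein. The levels of the 6 transcripts were far from equal, but they do not give protein levels, which were not measured here. Mcm6 took 42.7%, 36.7% and 41.5% of the summed level per kilobase of Mcm2 to Mcm7 in Mcph1-/- and 33.5%, 32.8% and 39.0% in WT. Mcm2 took 3.57% to 6.27% in Mcph1-/- and 4.32% to 6.73% in WT. By longest transcript these shares were 32.4% to 38.3% in Mcph1-/- and 27.9% to 34.1% in WT for Mcm6, and 5.90% to 10.3% in Mcph1-/- and 7.02% to 11.1% in WT for Mcm2, and Mcm7 (36.1%) stood above Mcm6 in WT replicate 2. The summed level was 1083, 1236 and 1441 per kilobase in Mcph1-/- and 801, 719.9 and 579.5 in WT, with no overlap between the genotypes. The mean was 1253 ± 180 in Mcph1-/- and 700.2 ± 112 in WT (SD, n = 3 each), a ratio of 1.79, and by longest transcript it was 1493 ± 185 in Mcph1-/- and 861 ± 134 in WT, a ratio of 1.74. Without Mcm6 the sum was 749 ± 115 in Mcph1-/- and 457 ± 92.9 in WT, a ratio of 1.64. As a sum over chosen genes this is a description with no test.

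**Figure D3:**
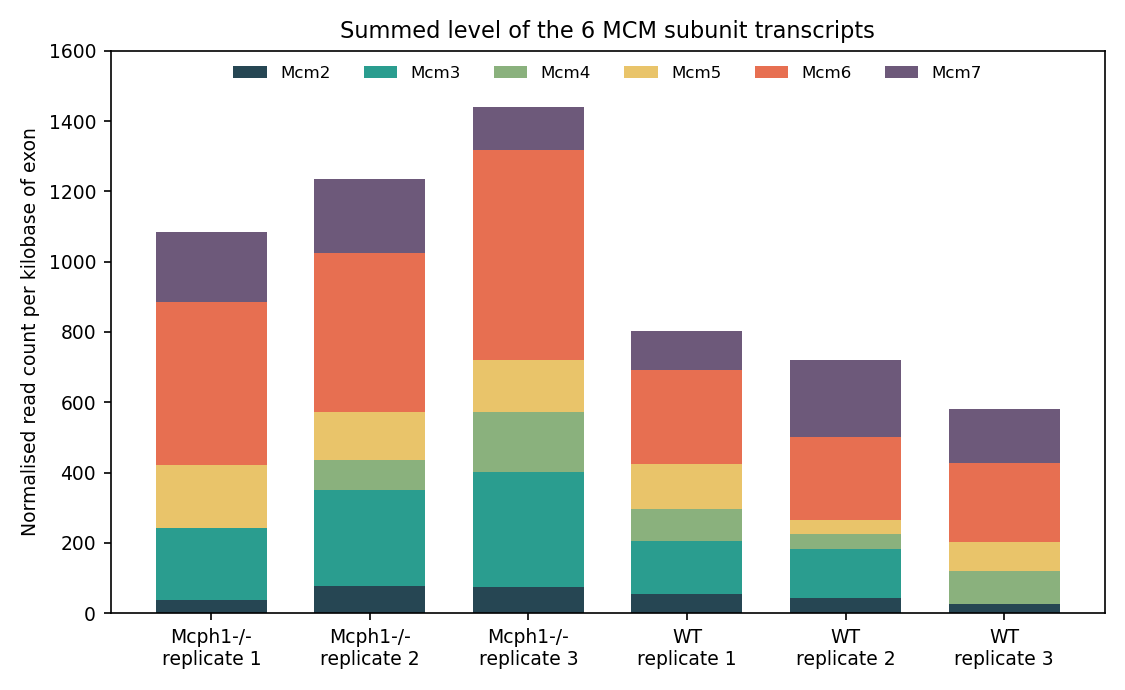
Normalised read count per kilobase of exon of the 6 MCM subunit genes, stacked for each library (vertical axis), Mcph1-/- on the left and WT on the right. The Mcph1-/- sums lie between 1083 and 1441 and the WT sums between 579.5 and 801, with Mcm6 the thickest layer in all 6 libraries.

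Other genes of licensing, firing, re-licensing control and E2F regulation numbered 69 in 4 lists, of which 56 had values and were tested. None passed by limma-trend or edgeR, and 4 had an unadjusted limma-trend p under 0.05, all with a fold change above 0. That is close to the 7.71% of all genes tested that met this in either direction, while 4.16% met it as higher. Fold changes were above 0 for 38 and below 0 for 18 (67.9% above 0, beside 53.8% of all genes tested), with a median log2 fold change of 0.49, beside 0.08 over all genes tested. DESeq2 called 3 of them, Gmnn, Tipin and Ccna2, where it called 2.19% of all genes tested (1.11% higher). For 5 of the 56, among them Gmnn, Tipin, Ccna2 and Dtl, every Mcph1-/- library was above every WT library, as for 7.4% of all genes tested. For 0 of the 56 every Mcph1-/- library was below, as for 6.8% of all genes tested.

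In the licensing list, 12 of 13 genes had values and 10 had a fold change above 0 (median 0.35). The loading factor Cdt1 has no values here. Gmnn encodes geminin, the inhibitor of Cdt1. It stood at 1003, 805 and 807 in Mcph1-/- and at 518, 401 and 343 in WT, with no overlap, and its log2 fold change was 1.06 (SE 0.34; limma adjusted p = 0.626; DESeq2 adjusted p = 0.0431). The origin recognition subunits Orc4 and Orc3 came next, with log2 fold changes of 0.85 (SE 0.42) and 0.79 (SE 0.55). Without WT replicate 2 that of Orc4 was 0.45, and without Mcph1-/- replicate 3 that of Orc3 was 0.33.

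In the list of firing factors and partners of the active helicase, 19 of 22 genes had values, 11 with a fold change above 0 and 8 below (median 0.36). Mcm10, Ticrr and Recql4 have no values here. Tipin, a fork protection factor, stood at 1675, 1443 and 2074 in Mcph1-/- and at 943, 979 and 737 in WT. The groups did not overlap, and the log2 fold change was 0.96 (SE 0.26; limma adjusted p = 0.551; DESeq2 adjusted p = 0.0105). Clspn, the checkpoint adaptor claspin, gave a value of 4.33 on the log2 scale (SE 2.14), with 0 reads in WT replicates 2 and 3. The log2 ratio of its group means was 1.76, and leaving out a library gave 3.22 (without WT replicate 2 or 3) to 6.55 (without WT replicate 1). Cdc25a, the phosphatase that activates Cdk2, gave -3.89 (SE 2.16), with 0 reads in Mcph1-/- replicate 1. Its log2 ratio of means was -1.73, and leaving out a library gave -6.01 (without Mcph1-/- replicate 2) to -2.27 (without Mcph1-/- replicate 1).

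In the list of re-licensing control and helicase unloading, 16 of 18 genes had values, 11 with a fold change above 0 (median 0.58). Ccna2, cyclin A2 of S phase and G2, stood at 1350, 810 and 496 in Mcph1-/- and at 196, 176 and 252 in WT. The groups did not overlap, and the log2 fold change was 1.98 (SE 0.49; limma adjusted p = 0.540; DESeq2 adjusted p = 0.00135). Its exons overlap those of Exosc9 on the other strand. Dtl, the substrate receptor that directs Cdt1 to degradation, gave a log2 fold change of 3.45 (SE 1.82), and Cul4a, the scaffold of that ligase, gave 1.02 (SE 0.54). Dtl had 0 reads in WT replicate 3, its log2 ratio of means was 2.31, and without that library its fold change was 1.73. Cul4a was at 0.59 without WT replicate 1.

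Among E2F and RB regulators, 9 of 16 genes had values, 6 with a fold change above 0 (median 0.35), and E2f1, E2f2, E2f3, E2f7 and E2f8 have no values here. Rbl1, the pocket protein p107, stood at 33.8, 193 and 221 in Mcph1-/- and at 50.97, 0 and 0 in WT. Mcph1-/- replicate 1 fell below WT replicate 1, and the log2 fold change was 4.94 (SE 2.03; limma adjusted p = 0.642). The log2 ratio of the Rbl1 means was 3.14, a pseudocount of 16 gave 2.39, and leaving out a library gave 3.99 to 6.84. E2f5 and Rbl2 came next, at 2.06 (SE 1.27) and 0.86 (SE 0.56). E2f5 was at 1.05 without WT replicate 1, 3.16 without WT replicate 3 and 1.17 by DESeq2, and Rbl2 at 0.40 without WT replicate 3.

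The 5 genes whose profile over the 6 libraries was nearest to the mean profile of Mcm2 to Mcm7 were Cox10, Cpsf2, Cog5, Trub1 and Alyref. The search left out members, genes without a symbol, predicted models (Gm and Rik names), pseudogenes and genes that varied much less than the profile. Likeness was the root-mean-square distance between log2 values centred on each gene's mean, and it was 0.21 for Cox10 and Cpsf2 and 0.23 for the other three. The mean profile was lowest in WT replicate 3 (-1.45) and Mcph1-/- replicate 1 (-0.58), and the Mcm3 count of 0 and the Mcm4 count of 1 read enter it there. With 10846 genes before these exclusions, and 6 libraries, such distances are a description only.

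**Figure D4:**
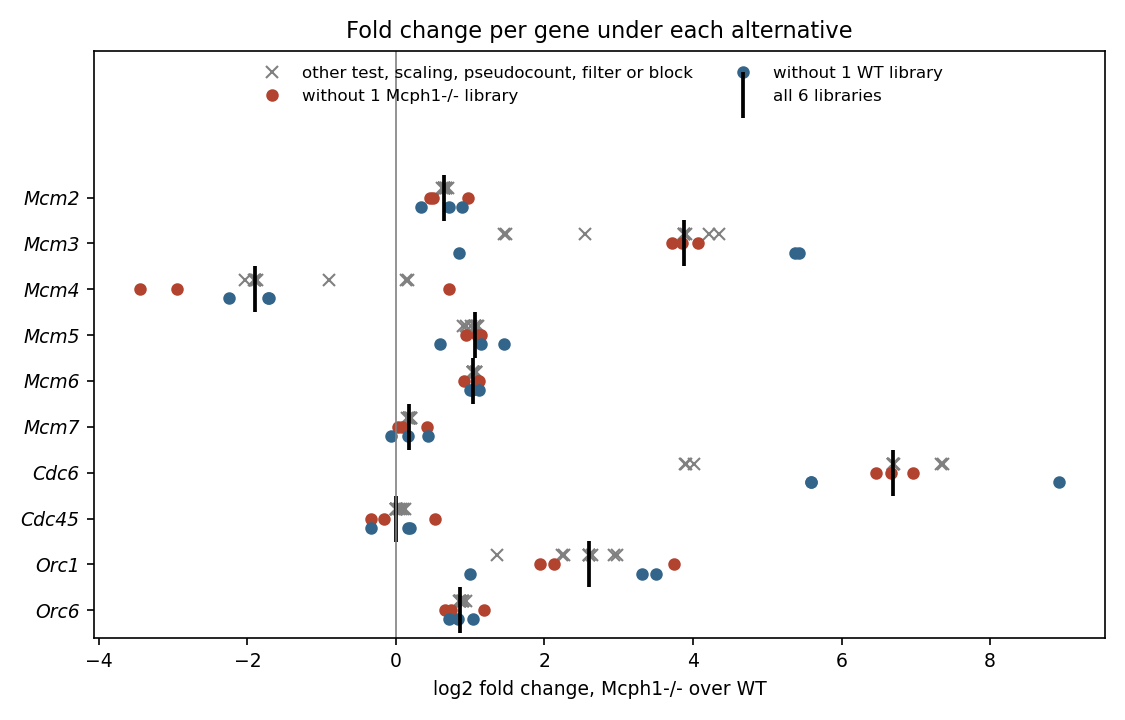
The log2 fold change of each gene, Mcph1-/- over WT (horizontal axis), with all 6 libraries (black lines), without 1 Mcph1-/- library (red), without 1 WT library (blue) and under other tests and settings (grey crosses). Mcm6 stayed between 0.92 and 1.12, while the points of Mcm4, Mcm7 and Cdc45 lie on both sides of 0.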

How the data were processed

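RNA-seq reads were processed by the authors. HISAT2, featureCounts, Trim Galore 0.6.6, DESeq2 and the build mm10 appear in the submitters' processing notes, with no role or order. The strand setting and the annotation release are not stated in the sources used here. The deposited table holds a signal per gene and library, worked out from the values as read counts divided by 1 size factor: dividing by that of 1 read gave whole numbers, within 0.001 reads, for 100% of values, so read counts were recovered from the deposited values. The count test of edgeR called 2 genes on them. Listed genes have reads in at least 4 of 6 libraries. Paired reads were 150 bp. No 2 libraries of a genotype agreed within sampling noise; chi-square over degrees of freedom was at least 81.5.

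The main test was limma-trend (limma 3.58.1, R 4.3.3) on log2(value + 1) for genes with a mean of at least 10, genotype only, with Benjamini-Hochberg adjustment over 10846 genes and a threshold of 0.05. The added 1 understates changes of low genes, and a library at 0 widens a fold change. Alternatives were edgeR 4.0.16 and DESeq2 1.42.0 on recovered reads, limma-voom, TMM scaling, other pseudocounts and filters, a replicate block and leaving out each library. The fits were tested on simulated data, where with no gene changed DESeq2 made calls and the other tools made none. Exon lengths and positions come from GENCODE release M21 on mm10. The members and lists were chosen with earlier results of these data known. Named genes were the members, the 3 genes of smallest p in each list, and the 5 nearest profiles. Floors and Poisson intervals cover counting error only. Chromatin accessibility is not analysed here. A marker gene is not reported here and is left out of its list's sum.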

Additional observations from a re-analysis of the deposited data

How the results depend on the processing

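The count of members past the threshold, 0, and that of the other 56 pathway genes, 0, were the same under every alternative apart from DESeq2, which called 1 and 3. The count over all genes was 4, against 1 by limma-voom, 2 by edgeR and 238 by DESeq2, and 1 to 4 when a library was left out (2 without Mcph1-/- replicate 1, 1 without WT replicate 1 or 2). Of 150 member fold changes under 15 alternatives, 7 changed sign. That of Mcm4, -1.89, was 0.16 by edgeR and 0.13 by DESeq2, and -3.45 to 0.71 when a library was left out. Leaving out a library gave -0.071 to 0.43 for Mcm7, -0.34 to 0.52 for Cdc45 and -0.58 to 1.34 for Mcph1 (0.33 with all libraries). The members without overlap numbered 4 to 6 without a library. A group with a library fewer separates more easily, and the share over all genes tested was not counted there. The summed Mcm2 to Mcm7 mean was 1160 to 1338 in Mcph1-/- and 650 to 761 in WT without a library. By longest transcript, a choice made after seeing the data, it was 1493 in Mcph1-/- and 861 in WT. Same-numbered libraries did not deviate together (correlations of -0.0139, 0.0176 and -0.0295). With 3 libraries per genotype this cannot exclude a pairing, which the labels do not describe. With a replicate block 0 members and 3 genes in all passed. Depth limits Orc1 most, with 0 to 31 reads in WT libraries. The causes of these differences were not tested.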
